A study of Mus musculus with 26 samples.

Results

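The genes described here are those for the proteins of the cytosolic ribosome, measured as messenger RNA in single inner cell masses (ICMs) of mouse embryos. They were chosen by name. A symbol of the expression table was taken when it had the form Rpl or Rps followed by a number, with the usual paralog suffixes, or when it was Rpsa, Rplp0, Rplp1 or Rplp2, and symbols marked as numbered pseudogenes were left out. The rule found 89 of the 55254 symbols, 53 named for the large subunit and 36 for the small subunit. It does not take Fau, which encodes a ribosomal protein fused to a ubiquitin-like protein, nor Rack1 and Rpl36al. These are given separately. GENCODE M21 types 6 of the 89 as pseudogenes, namely Rpl32l, Rpl6l, Rps12l1, Rps3a2, Rps3a3 and Rps4l.

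The libraries came from CD-1 mouse embryos taken as E2.75 morulae, cultured for 24 hours and stripped of the outer cells by immunosurgery, with 1 library per ICM. There were 6 ICMs with both LY294002, a PI3K inhibitor, at 10 µM and FGF4 with heparin at 1 µg/ml (LY+FGF4), 8 with FGF4 and heparin at that dose (FGF4), 7 with LY294002 at that dose (LY), and 5 with the DMSO vehicle (DMSO). Heparin was given wherever FGF4 was and no group had heparin alone, so FGF4 and heparin cannot be told apart in any comparison. Embryos of 5 litters were mixed before they were divided among the conditions, so the litter of each ICM is unknown. Values are TPM, transcripts per 1000000 of a library, corrected for transcript length, and the read number behind a value is unknown.

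The cytosolic ribosome makes the cell's proteins from messenger RNA. Its small subunit holds the messenger RNA and reads its codons, and its large subunit joins the amino acids, while the stalk of Rplp0, Rplp1 and Rplp2 on the large subunit recruits the factors that drive elongation. Each ribosome carries about equal amounts of nearly all its proteins, most of their messenger RNAs begin with a run of pyrimidines (the 5′ TOP motif) through which mTORC1, downstream of PI3K, controls their translation, and a few genes have paralogs that replace the main copy in particular tissues.

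Libraries differed in how many genes they listed. The median number of genes at 1 TPM or more was 8650.5 in LY+FGF4, 10504.5 in FGF4, 10089 in LY and 10692 in DMSO, and 6 libraries listed fewer than 9000 (replicates 2, 3, 5 and 8 of LY+FGF4 and replicates 2 and 3 of FGF4). Lineage markers differed too. The summed TPM of Gata4, Sox17, Pdgfra and Sox7, markers of primitive endoderm, averaged 846 in LY+FGF4, 1139 in FGF4, 25.5 in LY and 238 in DMSO. That of the epiblast markers Nanog, Fgf4, Prdm14 and Klf2 averaged 55.7 in LY+FGF4, 37.4 in FGF4, 362 in LY and 365 in DMSO. The ICM markers Pou5f1, Sox2, Nanog and Gata6 summed to at least 899 TPM in every library. For 8 trophectoderm markers the sum ranged from 178 to 614 in LY+FGF4, from 342 to 938 in FGF4, from 448 to 840 in LY and from 489 to 1072 in DMSO. Of these, Elf5 was listed at 0 in all LY+FGF4 and FGF4 libraries. It was also at 0 in 6 of 7 LY and 4 of 5 DMSO libraries, and at most at 1.72 and 2.29 TPM there. In whole ICMs, fewer cells of a type and less RNA per cell cannot be told apart.

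Starts of transcription from RefSeq (GRCm38.p6) are shown for 6 members that moved with FGF4 in the results given further on, to let the sequence at the start be read beside the values. Each run has the 40 bases before the annotated start and the first 20 bases from it. Capitals mark CTCTTTC, a TOP-like run of pyrimidines, or CCGGAAG, the core of an ETS site, on either strand. Rps10 lies at chr17:27635225-27635284 (minus strand), Rps26 at chr10:128626487-128626546 (minus), Rps3a1 at chr3:86142649-86142708 (minus), Rpl13a at chr7:45128726-45128785 (minus), Rplp0 at chr5:115559427-115559486 (plus) and Rpsa at chr9:120127726-120127785 (plus).
Rps10: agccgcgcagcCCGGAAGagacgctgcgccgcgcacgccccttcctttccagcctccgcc
Rps26: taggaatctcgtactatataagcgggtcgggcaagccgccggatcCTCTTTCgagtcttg
Rps3a1: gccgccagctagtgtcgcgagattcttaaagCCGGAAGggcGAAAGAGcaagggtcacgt
Rpl13a: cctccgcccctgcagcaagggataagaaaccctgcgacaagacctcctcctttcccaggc
Rplp0: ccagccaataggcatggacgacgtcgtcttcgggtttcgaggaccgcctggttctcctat
Rpsa: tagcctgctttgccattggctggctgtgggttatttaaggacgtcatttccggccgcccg

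RefSeq gave 76 starts for 64 of the members. Within 50 bases on either side of the start, CTCTTTC stood on the sense strand at 14 of these 76 starts (18.4%), against 1.37% of the 32851 starts of all genes. It was found at 11 of 47 large subunit starts and 3 of 29 small subunit starts. CCGGAAG stood on either strand at 14 of the 76 (18.4%), against 5.21% of all starts. AAGATGGCG, the core of a YY1 site, stood on either strand at 5 of the 76 (6.58%), against 0.910% of all starts. These 5 starts belong to 3 genes, Rpl13a, Rpl35a and Rpl7l1, and 3 of them are starts of Rpl35a. At 0 of the 76 starts did letters of 2 of these motifs overlap. As a description, the 12 tested members with CTCTTTC on the sense strand had a median log2 fold change of -0.28 in FGF4 against DMSO and -0.38 in LY+FGF4 against LY, and the 50 without it had -0.38 and -0.53 in the same comparisons. The medians of both sets were negative where FGF4 was added. CTCTTTC is 1 exact run, sought also before the start, so this split does not part TOP from other members. Rps10, for one, lacks CTCTTTC but begins with cttcctttcc at its annotated start.

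In all 26 libraries 81 of the 89 members were listed at 1 TPM or more. The 3 members with the highest mean level over the 26 libraries in the large subunit were Rpl3, with 1642 TPM, the stalk base Rplp0, with 1562 TPM, and Rpl13a, with 1388 TPM. The highest in the small subunit were Rps14, with 1797 TPM, and Rps6, the main ribosomal substrate of S6 kinase, with 1429.5 TPM. The lowest tested large subunit members were Rpl6l, Rpl10l and Rpl22l1, with 1.61, 8.06 and 24.5 TPM, and the lowest tested small subunit members were Rps3a2, Rps20 and Rps15a, with 15.9, 35.4 and 48.8 TPM. Rpl3l, known from heart and skeletal muscle, was listed at 0 in 25 of the 26 libraries, and the pseudogene-like symbols Rpl32l and Rps12l1 were at 0 in most. These 3 did not pass the filter for tests, which asked for 1 TPM or more in at least 5 libraries, and 86 members were tested, 51 large and 35 small.

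Summed ribosomal protein levels were on average lower in the groups that had received FGF4. Large subunit members summed to 20947 ± 1295 TPM in LY+FGF4, 21083 ± 2190 in FGF4, 27834 ± 3342 in LY and 26012 ± 2065 in DMSO (mean ± SD, n = 6, 8, 7 and 5). Small subunit members summed to 17499.7 ± 1161 TPM in LY+FGF4, 17200.5 ± 1396 in FGF4, 21323 ± 3085 in LY and 19856 ± 1633 in DMSO. In the DMSO libraries, replicates 3, 6, 7, 8 and 9 had large subunit sums of 24975, 27101, 25639, 28876 and 23470 TPM. The LY+FGF4 libraries, from 19368 to 23069 TPM, all lay below these and below the LY libraries (23519 to 32183 TPM), while the FGF4 libraries, from 17917 to 23962 TPM, overlapped the DMSO range. Small subunit sums overlapped between LY+FGF4 (15302 to 18741 TPM) and both LY (15993 to 24882 TPM) and DMSO (18038 to 22225 TPM). Together the members took 3.84%, 3.83%, 4.92% and 4.59% of a library on average in LY+FGF4, FGF4, LY and DMSO. The ratio of the large to the small sum was 1.199 ± 0.072 in LY+FGF4, 1.23 ± 0.081 in FGF4, 1.31 ± 0.072 in LY and 1.31 ± 0.032 in DMSO. The small sum includes Rpsa, which went the other way from most members. It averaged 1157 TPM in LY+FGF4, 936 in FGF4, 456 in LY and 373 in DMSO. Neither the overlap of the small sums nor the ratio was computed without Rpsa, so they do not show a difference between the subunits at large. No test was made of the sums, since the members were chosen together.

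**Figure D1:**
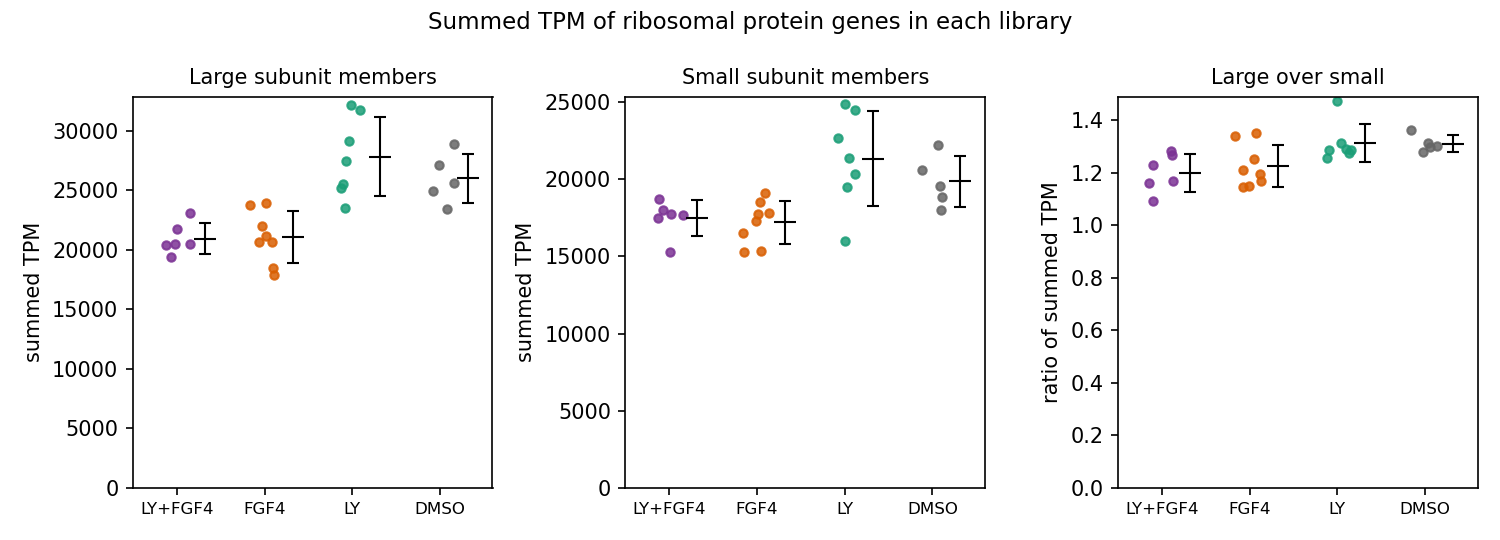
Summed TPM of the 53 large subunit members (left), of the 36 small subunit members (middle) and the ratio of the sums (right), 1 point per library, in LY+FGF4, FGF4, LY and DMSO from left to right. Bars are mean ± SD. Large subunit sums of the 6 LY+FGF4 libraries lie between 19368 and 23069 TPM, below every DMSO and LY library.

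Added FGF4, without LY, was set against DMSO first. One small subunit gene, Rpsa, rose, and 7 members fell. Among them were the stalk genes Rplp0 and Rplp1, Rpl10a of the large subunit's L1 stalk, and Rps10, Rps29 and Rps3a1 of the small subunit. So 8 of 86 members (9.30%) passed limma's test at an adjusted p under 0.05, and 2.44% of all 12034 tested genes did (0.981% higher and 1.46% lower). Of the large subunit 0 were higher and 3 lower of 51, and of the small subunit 1 was higher and 4 lower of 35. The median log2 fold change, on the log2(TPM + 1) scale as are all those given here, was -0.36 over the members and -0.10 over all tested genes, and 66 of 86 members had a negative one.

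Rps10, a small subunit protein near the messenger RNA entry, was listed at 88.6 TPM in the lowest, 182 in the median and 248 in the highest FGF4 library, against 353, 352, 389, 295 and 344 TPM in the DMSO libraries. The groups did not overlap. Rps10 fell by 1.00 on the log2 scale (SE 0.21, limma adjusted p = 0.00773) in FGF4 against DMSO.

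Rplp0, the base of the stalk, was at 886, 1112 and 1263 TPM in the lowest, median and highest FGF4 library, against 1355, 1765, 1688, 1768 and 1340.3 TPM in DMSO. It fell by 0.54 (SE 0.12, limma adjusted p = 0.0118), and again no FGF4 library reached a DMSO library. Rplp1, which binds that base with Rplp2, was at 144, 223 and 360 TPM in the lowest, median and highest FGF4 library, against 374, 458, 498, 401 and 560.02 TPM in DMSO. Rplp1 fell by 0.98 (SE 0.22, limma adjusted p = 0.0143). Rplp2, its partner, had a log2 fold change of -0.54 (SE 0.21, limma adjusted p = 0.176) and did not pass.

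Rpsa, the small subunit protein also known as the laminin receptor, went the other way. It was at 479, 734 and 2157 TPM in the lowest, median and highest FGF4 library, against 391, 127, 314, 477 and 556 TPM in DMSO. Only the lowest FGF4 library lay within the DMSO range. Rpsa rose by 1.32 (SE 0.33, limma adjusted p = 0.0272). The FGF4 mean rests in part on replicate 2. Without that library the log2 fold change was 1.13 (limma adjusted p = 0.0513), and without replicate 6 of DMSO it was 0.98 (limma adjusted p = 0.132).

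Members past 1 on the log2 scale that did not pass were Rps3a2 (2.17, limma adjusted p = 0.437), Rpl10l (1.497, 0.405), Rps3a3 (1.32, 0.738), Rpl22l1 (-1.73, 0.438) and Rpl7l1 (-1.17, 0.0647). Rps6 had -0.29 (limma adjusted p = 0.382). Also lower with FGF4 were Rps29 (log2 fold change -1.04, SE 0.25, limma adjusted p = 0.0177), Rpl10a (-0.74, SE 0.19, limma adjusted p = 0.0316) and Rps3a1 (-0.51, SE 0.13, limma adjusted p = 0.0322). In 9 members every FGF4 library was below every DMSO library (Rpl14, Rpl22, Rplp0, Rplp1, Rps10, Rps13, Rps16, Rps26 and Rps29), and in 0 every one was above. Over all tested genes 1.63% were wholly below and 1.13% wholly above. At 5 DMSO libraries single libraries weigh on the calls. Of the 8, Rps10 was the one that passed without any 1 library, and the count was 2 without replicate 7 of DMSO, 3 without replicate 6, 4 without replicate 8, and 5 without replicate 1 or replicate 2 of FGF4. With the number of listed genes as a covariate the count was 2. Epiblast and primitive endoderm markers moved in the same comparison by the sums given above. Trophectoderm sums overlapped, and among those markers the FGF4 mean was higher for Eomes and Gata3 and lower for the others. The part of any of these markers in the differences was not tested.

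FGF4 on top of LY, LY+FGF4 against LY, shares no library with that comparison. In it 21 members fell and 2 rose, 23 of 86 (26.7%), while 6.3% of all tested genes passed (1.79% higher and 4.5% lower). Large subunit members were 1 higher and 11 lower of 51, small subunit members 1 higher and 10 lower of 35. The median log2 fold change was -0.39 over the members and -0.24 over all tested genes.

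Rpl10a was at 565, 901 and 1325 TPM in the lowest, median and highest LY+FGF4 library, against 1325, 1780.1 and 2309 TPM in LY. It fell by 1.02 (SE 0.18, limma adjusted p = 0.00147), with the highest LY+FGF4 library (1324.68 TPM) just under the lowest LY library (1324.85 TPM).

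Rpl13, Rps13, Rpl13a, Rps3a1, Rpl22 and Rpl14 followed by p, with log2 fold changes of -0.84, -1.08, -1.25, -0.65, -1.31 and -0.67, and limma adjusted p between 0.00189 and 0.00273. Rpl13a, which is also known for a role outside the ribosome in silencing inflammatory messenger RNAs in human cells, varied widely in LY. It was at 448, 707 and 931 TPM in the lowest, median and highest LY+FGF4 library, against 870.4, 1940 and 2574 TPM in LY, so the groups overlapped at their edges. Rpl22 was at 83.9, 105 and 128 TPM in the lowest, median and highest LY+FGF4 library, against 156, 239 and 529 TPM in LY. Every LY library lay above every LY+FGF4 library.

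Rpsa again rose, by 1.36 (SE 0.32, limma adjusted p = 0.0113). It was at 793, 1066 and 1788 TPM in the lowest, median and highest LY+FGF4 library, against 266, 494 and 621 TPM in LY, with no overlap. The stalk followed in part, with Rplp0 lower by a log2 fold change of -0.53 (SE 0.12, limma adjusted p = 0.00758) and Rplp1 and Rplp2 at -0.66 and -0.38 without passing (limma adjusted p = 0.0690 and 0.280). Rps6 had -0.36 (limma adjusted p = 0.155). The second gene called higher, the pseudogene Rpl6l, was at 0 in all 7 LY libraries and at most 10.3 TPM in LY+FGF4, so no fold is given. In 10 members every LY+FGF4 library was below every LY library, and 1, Rpsa, was wholly above. The shares over all tested genes were 1.21% and 0.623%.

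Of the 23 calls, 17 passed without any 1 library. Without the 6 libraries that list fewer than 9000 genes the count was 9, with LY+FGF4 then represented by 2 libraries. With the number of listed genes as a covariate it was 4. Genes listed numbered 7486 to 9534 in LY+FGF4 and 9860 to 10215 in LY, with no overlap, so the covariate and the treatment cannot be told apart in this comparison. The part of the lineage marker differences given above was not tested here either.

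Across these 2 comparisons, 62 of 86 members (72.1%) were negative in both, against 42.3% of all tested genes, and 13 were positive in both. Called lower in both were 6 members, among them Rpl10a, Rplp0, Rps10, Rps29 and Rps3a1, which is 85.7% of the 7 called in FGF4 against DMSO and 28.6% of the 21 called in LY+FGF4 against LY. Over all tested genes 82 were called lower in both, which is 46.6% of 176 and 15.1% of 542. The comparisons share no library. Both tests use 1 estimate of each gene's spread from all 26 libraries, however, so the 2 lists of calls are not independent. The 13 with positive values in both included Rpsa, Rpl4, Rpl10, Rpl24, Rps7 and Rps14. Other than Rpsa these did not pass the test. The sign of Rpl24 turns once copies that share part of its sequence, Gm28037 among them, are added. Its value was then -0.65 in FGF4 against DMSO (SE 0.18, limma adjusted p = 0.0542) and -1.01 in LY+FGF4 against LY (SE 0.18, limma adjusted p = 0.00126). The other 5 stay positive. Rpl4, for one, had log2 fold changes of 0.25 (limma adjusted p = 0.322) and 0.22 (limma adjusted p = 0.295).

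**Figure D2:**
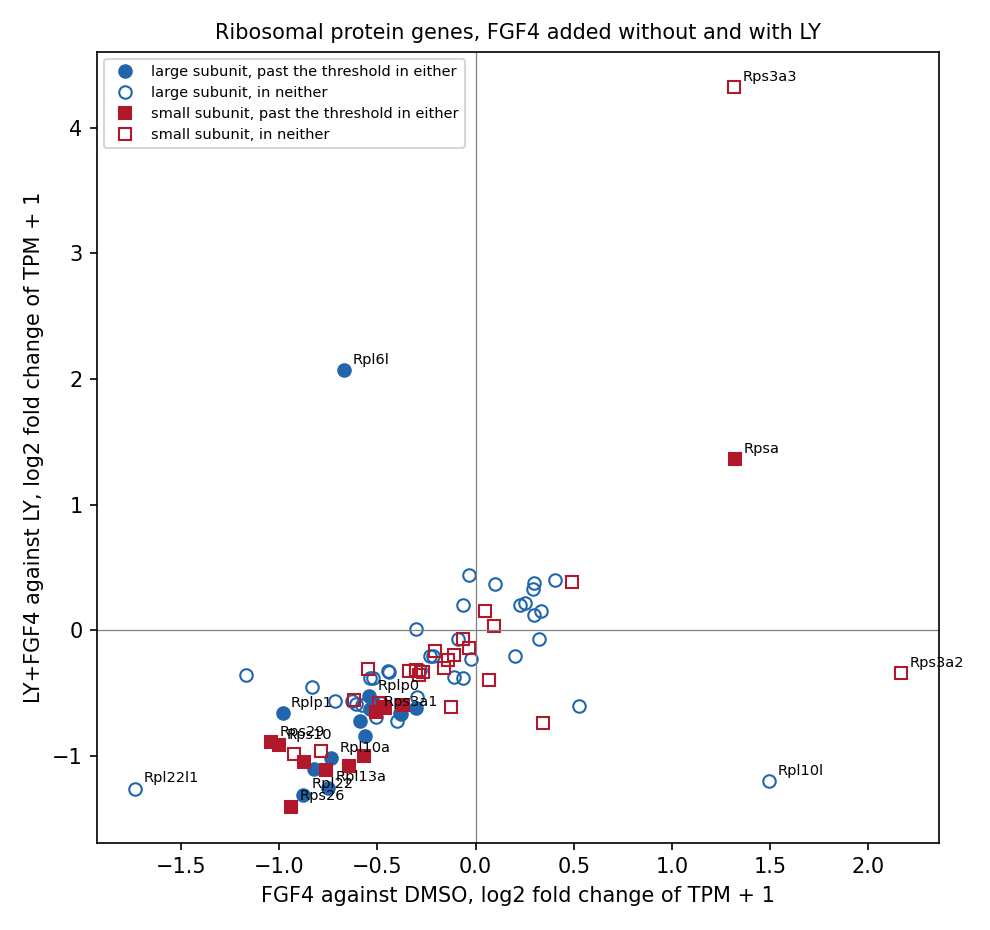
log2 fold change of TPM + 1 of the 86 tested members in FGF4 against DMSO (horizontal) and in LY+FGF4 against LY (vertical), circles for the large and squares for the small subunit, filled where the gene passed limma's threshold in either comparison. Most members, 62 of 86, lie where both values are negative, and Rpsa is the one called higher in both.

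Both agents together, LY+FGF4 against DMSO, gave 19 members lower and 1 higher, 20 of 86 (23.3%), where 9.5% of all tested genes passed (2.19% higher and 7.3% lower). Of the large subunit 9 of 51 fell, and of the small subunit 10 of 35 fell and Rpsa rose. The median log2 fold change of the members, -0.33, was close to that of all tested genes, -0.37. This comparison shares its LY+FGF4 libraries with the preceding one and its DMSO libraries with the first.

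Rpl13a fell by 1.47 (SE 0.26, limma adjusted p = 0.000866), to 707 TPM in the median LY+FGF4 library, against 1797, 1998, 2396, 2188 and 1414 TPM in DMSO. Its highest LY+FGF4 library had 931 TPM, below all of DMSO. Rpl22 fell by 1.47 (SE 0.28, limma adjusted p = 0.00162), with 128 TPM in the highest LY+FGF4 library against 308, 222, 276, 347 and 310.3 TPM in DMSO. Rps26, a small subunit protein at the messenger RNA exit, fell by 1.58 (SE 0.33, limma adjusted p = 0.00322). It was at 46.8, 113 and 158 TPM in the lowest, median and highest LY+FGF4 library, against 311, 310.4, 229.9, 339.7 and 278 TPM in DMSO. None of these 3 overlapped between the groups.

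Rps10 fell by 1.13 (SE 0.22, limma adjusted p = 0.00191), Rpl14 by 0.70 (SE 0.14, limma adjusted p = 0.00305), Rps13 by 1.03 (SE 0.22, limma adjusted p = 0.00482) and Rpl6 by 0.93 (SE 0.20, limma adjusted p = 0.00483). Rpsa rose by 1.73 (SE 0.35, limma adjusted p = 0.00287), and its lowest LY+FGF4 library, 793 TPM, was above the highest DMSO library, 556 TPM. Rps6 fell by 0.53 (SE 0.16, limma adjusted p = 0.0373), with 916 to 1384 TPM in LY+FGF4 against 1519, 1789.5, 1657, 2008 and 1453 TPM in DMSO. That call was lost without any 1 of 7 of the 11 libraries (limma adjusted p up to 0.104) and under 7 of 12 other settings, median-ratio scaling among them. Rplp0, Rplp1 and Rplp2 had -0.08, -0.57 and -0.32 and did not pass (limma adjusted p = 0.733, 0.132 and 0.375). In 15 members every LY+FGF4 library was below every DMSO library and in 1 above, against 4.85% and 1.74% of all tested genes.

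Of these 20 calls 13 passed without any 1 library, and the count was 13 without replicate 8 of DMSO. With the number of listed genes as a covariate 1 call was left, Rpl13a, and without the libraries under 9000 genes 7 were. Genes listed numbered 7486 to 9534 in LY+FGF4 and 10212 to 11367 in DMSO, with no overlap. The covariate and the treatment thus cannot be told apart here either. Without the libraries under 9000 genes, LY+FGF4 is represented by replicates 6 and 7 alone.

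With LY on top of FGF4, LY+FGF4 against FGF4, members passed at about the rate of all tested genes. Rplp0 and Rpl31 rose and Rpl10l fell, 3 of 86 (3.49%), where 3.55% of all tested genes passed (0.723% higher and 2.83% lower). All 3 belong to the large subunit, as do 51 of the 86 tested members. The median log2 fold change was 0.01 over the members and -0.24 over all tested genes. Rplp0 was at 1239, 1495 and 1729 TPM in the lowest, median and highest LY+FGF4 library, against 886, 1112 and 1263 TPM in FGF4, and rose by 0.46 (SE 0.11, limma adjusted p = 0.0205). The ranges met only at their edges. Rpl31, a protein at the exit of the peptide tunnel, was at 253, 299.9 and 439 TPM in the lowest, median and highest LY+FGF4 library, against 119, 209 and 269 TPM in FGF4, and rose by 0.70 (SE 0.18, limma adjusted p = 0.0274). Rpsa, Rps6 and Rplp1 had log2 fold changes of 0.41, -0.25 and 0.42 and did not pass (limma adjusted p = 0.511, 0.371 and 0.286). Rpl14 alone was wholly below FGF4 in LY+FGF4 and 0 members were wholly above, against 0.49% and 0.15% of all tested genes. With the libraries under 9000 genes left out 0 of the 3 calls passed, and 0 passed without replicate 8 of LY+FGF4.

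LY alone against DMSO gave 0 calls among the 86 members by limma, where 0.374% of all tested genes passed (0.0748% higher and 0.299% lower). At an unadjusted p under 0.05 there were 6 higher and 1 lower (8.14% of the members), where 8.59% of all tested genes had such a p, 2.81% higher and 5.78% lower. The median log2 fold change was 0.07 over the members and -0.10 over all tested genes, and 55 members had a positive value. Rplp0 came nearest, at 1944 to 2547 TPM in LY with a median of 2133 TPM, against 1355, 1765, 1688, 1768 and 1340.3 TPM in DMSO. Every LY library was above every DMSO library, which held for no other member and for 0.806% of all tested genes. In 0 members was every LY library below every DMSO library, against 1.54% of all tested genes. The log2 fold change of Rplp0 was 0.44 (SE 0.12, limma adjusted p = 0.108). The next by p were Rpl10a, with 0.56 (SE 0.19, limma adjusted p = 0.289), and Rps16, with 0.35 (SE 0.14, limma adjusted p = 0.400). Rpsa and Rps6 had 0.37 and -0.18 (limma adjusted p = 0.883 and 0.876).

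The interaction asks whether LY acted differently on embryos with and without FGF4. It gave 0 calls among members by limma, where 0.0499% of all tested genes passed (0.0249% higher and 0.0249% lower). At an unadjusted p under 0.05 there were 1 higher (Rpl6l) and 3 lower (Rpl10l, Rpl39l and Rps18), 4.65% of the members, where 6.03% of all tested genes had such a p. For Rpsa the interaction was 0.04 (SE 0.46) and for Rplp0 0.02 (SE 0.17).

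**Figure D3:**
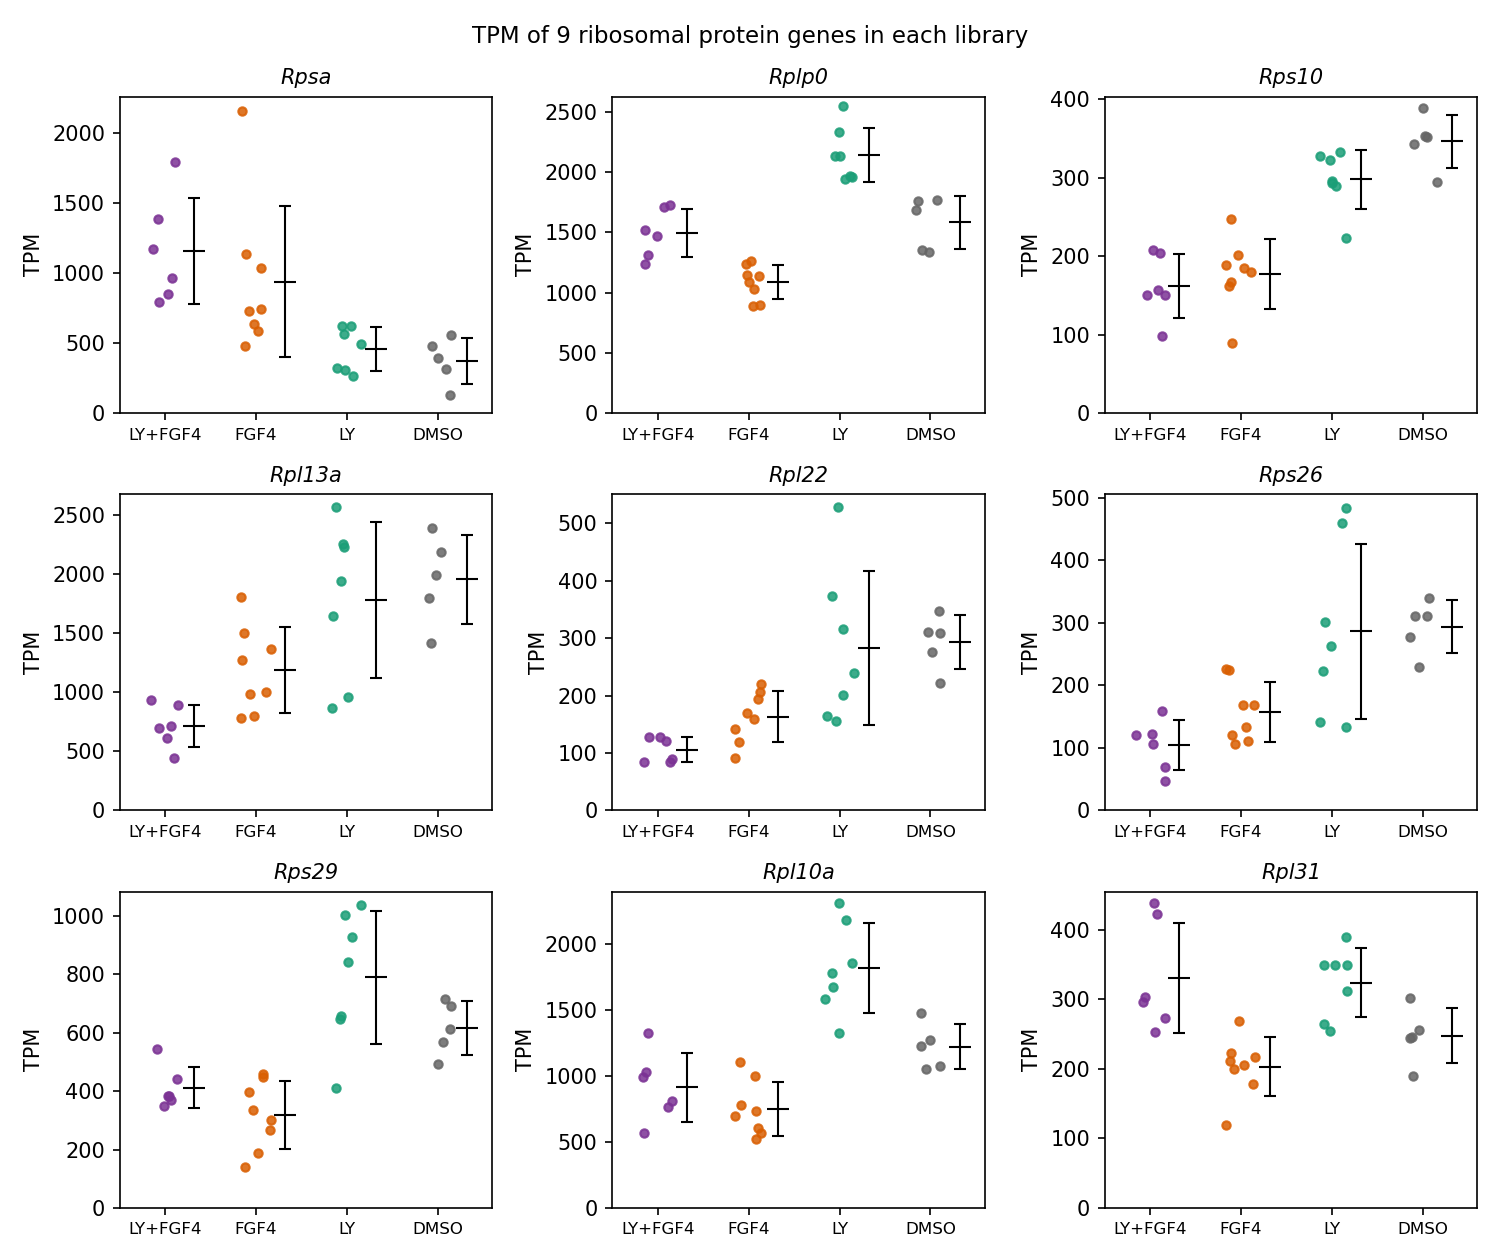
TPM of 9 members in each library, 1 point per library with mean ± SD beside it, in LY+FGF4, FGF4, LY and DMSO from left to right. Rpsa lies between 793 and 1788 TPM in LY+FGF4 and between 127 and 556 TPM in DMSO, while the means of Rps10, Rps29 and Rpl22 are lower in both groups that had received FGF4.

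Paralogs were compared within each library, as log2(TPM + 1) of the paralog minus that of the main gene. Of 8 pairs, 7 had both genes tested, which gave 35 tests over 5 comparisons by two-sided exact permutation. By Benjamini-Hochberg adjustment 0 of the 35 passed, and 8 had an unadjusted p under 0.05. The ratios below are thus described with differences that failed the correction.

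Rps27l, a p53-responsive paralog of Rps27, was the more abundant of the pair in every LY+FGF4 and FGF4 library. It made up 66.4% ± 6.1 of the pair in LY+FGF4, 66.5% ± 6.7 in FGF4, 54.2% ± 5.7 in LY and 53.7% ± 7.7 in DMSO (SD, n = 6, 8, 7 and 5). The paralog difference was 0.75 higher in LY+FGF4 against LY (exact permutation p = 0.00233, adjusted 0.0816) and 0.78 higher in FGF4 against DMSO (exact permutation p = 0.0148, adjusted 0.121). On the level of each gene, Rps27l averaged 408 TPM in LY+FGF4, 350.2 in FGF4, 478 in LY and 369.5 in DMSO, and Rps27 averaged 209.9 TPM in LY+FGF4, 184 in FGF4, 411 in LY and 332 in DMSO.

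Rpl39l, known from the testis, averaged 65.5 TPM in LY+FGF4, 85.7 in FGF4, 98.9 in LY and 64.4 in DMSO, and Rpl39 averaged 82.1 TPM in LY+FGF4, 82.9 in FGF4, 174 in LY and 140.04 in DMSO. The means were alike in FGF4, and Rpl39 was the higher by mean in the other groups. Rpl39l made up 44.4% ± 11.1 of the pair in LY+FGF4, 51.1% ± 10.98 in FGF4, 36.3% ± 8.8 in LY and 30.01% ± 10.5 in DMSO. In FGF4 against DMSO the difference was 1.35 higher (exact permutation p = 0.00622, adjusted 0.101). Rpl39 itself fell in LY+FGF4 against LY by 1.10 (SE 0.30, limma adjusted p = 0.0269).

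Rpl10l, an autosomal retrogene of X-linked Rpl10 that takes over from it in male meiosis, was listed in 7 of 8 FGF4 libraries, at up to 48.3 TPM, and in 2 of 6 LY+FGF4 libraries, at up to 3.75 TPM. It fell by 2.91 in LY+FGF4 against FGF4 (SE 0.80, limma adjusted p = 0.0370), and omitting any 1 of 10 of the 14 libraries ended the call. Over all 14 omissions the limma adjusted p lay between 0.00714 and 0.0728. In DMSO it was at 4.28, 7.42, 0, 8.57 and 2.5 TPM. Rpl10 averaged 840.2 TPM in LY+FGF4 and 668 in FGF4, so Rpl10l was a small part of the pair, 0.135% in LY+FGF4 and 3.20% in FGF4 on average. Against FGF4 the difference within the pair was -3.45 (exact permutation p = 0.00866, adjusted 0.101).

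Rpl22l1, the paralog of Rpl22, made up 13.5% of that pair in LY+FGF4, 9.85% in FGF4, 8.03% in LY and 11.02% in DMSO on average. It was at 0 in 2 LY+FGF4 and 2 FGF4 libraries, and the difference within the pair did not pass in any of the 5 comparisons (exact permutation, adjusted p between 0.676 and 0.970). Rpl7l1, a paralog of Rpl7 that works mainly in ribosome assembly, was 0.71 lower relative to Rpl7 in LY against DMSO (exact permutation p = 0.0253, adjusted 0.126). Rps4l, typed as a pseudogene, made up between 20.99% and 27.7% of its pair with Rps4x in the 4 group means, and Rpl36al between 64.7% and 72.35% of its pair with Rpl36a. Neither pair had a test with an unadjusted p under 0.05.

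**Figure D4:**
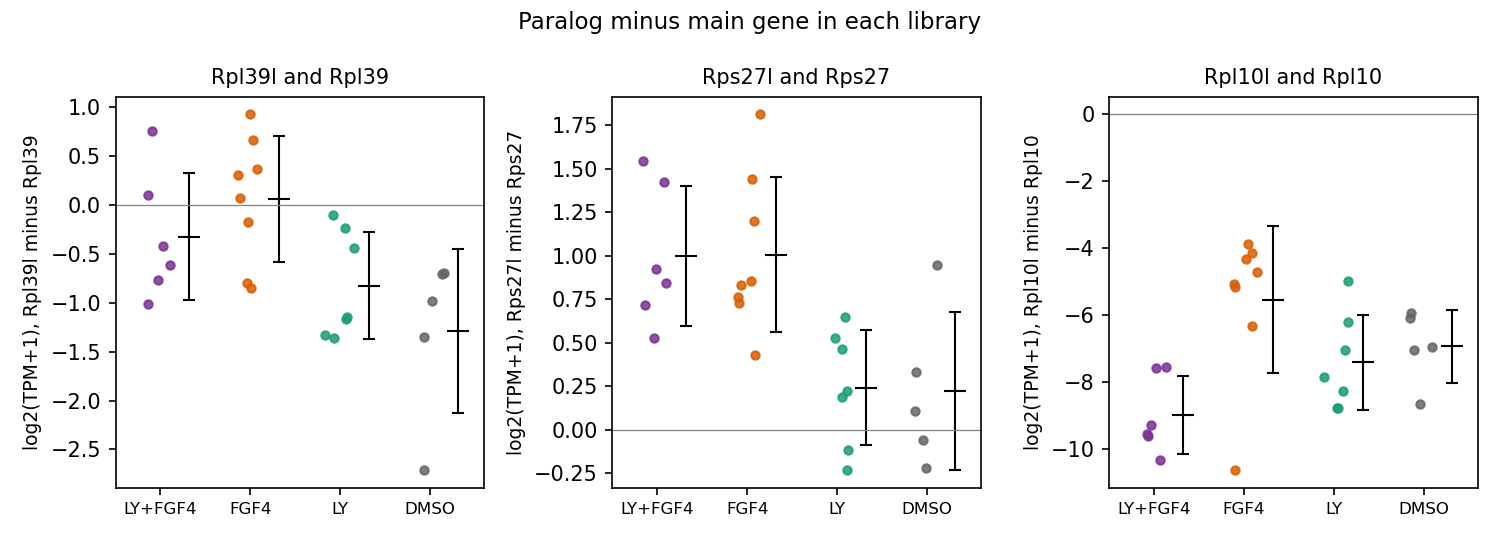
log2(TPM + 1) of the paralog minus that of the main gene in each library for Rpl39l and Rpl39, Rps27l and Rps27, and Rpl10l and Rpl10, in LY+FGF4, FGF4, LY and DMSO from left to right, with mean ± SD. Rps27l makes up 66.4% of its pair in LY+FGF4 and 53.7% in DMSO on average, and Rpl10l is at 0 in 4 of 6 LY+FGF4 libraries.

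Ribosomal protein genes have many near-identical copies, and reads of a copy can be assigned to either. In GENCODE M21, 26 members had at least 50% of their 50-base stretches in other genes, and 3 had none. A gene was counted as a copy when it held at least 20% of a member's stretches, so some copies share only a part. Only copies typed as pseudogenes or with names in Gm were added. Rpl9-ps6, typed as protein coding, was thus left out, at 174 TPM in LY+FGF4, 144 in FGF4, 329 in LY and 241 in DMSO on average. Rows of copies outside the members summed to 3749.7 TPM in LY+FGF4, 3066 in FGF4, 3973 in LY and 3089 in DMSO on average. The copies were 8.79% of members and copies together in LY+FGF4, 7.29% in FGF4, 7.47% in LY and 6.28% in DMSO. Some copies differed between groups by more than their members. Gm10036, which shares 35.7% of the stretches of Rpl11, averaged 567 TPM in LY+FGF4, 414 in FGF4, 176 in LY and 70.3 in DMSO, while Rpl11 averaged 333 TPM in LY+FGF4, 330.4 in FGF4, 507 in LY and 496 in DMSO. With copies added to their members, an alternative chosen after the data were seen, the counts were 8, 16, 3 and 21 in FGF4 against DMSO, LY+FGF4 against DMSO, LY+FGF4 against FGF4 and LY+FGF4 against LY. The sign of the fold change turned with this addition in 6, 3, 10 and 3 members of those comparisons and in 4 in LY against DMSO, none of them called as reported. Rpl24 was then called lower in LY+FGF4 against DMSO (-0.66, SE 0.19, limma adjusted p = 0.0304) and in LY+FGF4 against LY, where without the copy it had 0.47 and 0.40. Gm28037, which shares 69.4% of the stretches of Rpl24, averaged 175 TPM in LY+FGF4, 178 in FGF4, 567.6 in LY and 416 in DMSO. Rpsa kept its values under this addition (log2 fold changes of 1.32, 1.67 and 1.24 in FGF4 against DMSO, LY+FGF4 against DMSO and LY+FGF4 against LY). The calls of Rps3a1 were lost, and its copies include Rps3a2 and Rps3a3, whose own levels were uncertain for the same reason. Rps3a3 was listed in 6 of 6 LY+FGF4 libraries, at 33.6 to 294 TPM, against 2 of 5 DMSO libraries, and its log2 fold change of 4.62 did not pass (limma adjusted p = 0.0638).

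Genes that act with the ribosome were read beside it from lists chosen by name. Their calls were not followed under the alternative settings used for the members, so how far they hold is unknown. Fau, outside the naming rule, fell by 1.21 in LY+FGF4 against DMSO (SE 0.20, limma adjusted p = 0.000532), by 0.99 against LY (SE 0.19, limma adjusted p = 0.00202) and by 0.85 against FGF4 (SE 0.18, limma adjusted p = 0.00805). Rack1 and Rpl36al passed in none of the 5 pairwise comparisons.

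Initiation factors did not move as 1 group. Of 32 tested, 5 rose and 1 fell in FGF4 against DMSO, 3 rose and 4 fell in LY+FGF4 against DMSO, 0 rose and 1 fell in LY+FGF4 against FGF4, and 3 rose and 0 fell in LY+FGF4 against LY. Over all tested genes 2.44%, 9.5%, 3.55% and 6.3% passed in these comparisons, in the same order. Eif4e, the cap-binding protein, averaged 610.2 TPM in FGF4 and 201 in DMSO, and rose by 1.56 in that comparison (SE 0.30, limma adjusted p = 0.00410). Eif4g2 rose by 0.80 (SE 0.14, limma adjusted p = 0.00237) and Pabpc1, the poly(A)-binding protein, by 0.96 (SE 0.23, limma adjusted p = 0.0227) in FGF4 against DMSO. Pabpc1 averaged 585 TPM in LY+FGF4 and 170.5 in DMSO. These 3 also rose in LY+FGF4 against LY, Eif4e by 1.34, Eif4g2 by 0.82 and Pabpc1 by 1.13.

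Among 6 elongation factors, 0 rose and 1 fell in FGF4 against DMSO, 1 rose and 3 fell in LY+FGF4 against DMSO, 0 changed in LY+FGF4 against FGF4, and 0 rose and 2 fell in LY+FGF4 against LY. Eef1a1, which brings the charged transfer RNA, rose by 0.99 in LY+FGF4 against DMSO (SE 0.18, limma adjusted p = 0.000847), while Eef1d, part of its exchange factor, fell by 1.26 (SE 0.27, limma adjusted p = 0.00386). The mitochondrial ribosomal proteins, 78 genes for a separate ribosome, gave 1 higher and 1 lower in FGF4 against DMSO, 1 higher and 8 lower in LY+FGF4 against DMSO, 0 and 2 in LY+FGF4 against FGF4, and 0 and 3 in LY+FGF4 against LY. For these and the elongation factors, the shares of all tested genes that passed were 2.44%, 9.5%, 3.55% and 6.3%, in the same order. The median log2 fold change was -0.36 over the cytosolic members and -0.19 over the mitochondrial genes in FGF4 against DMSO, -0.33 and -0.42 in LY+FGF4 against DMSO, 0.01 and -0.21 in LY+FGF4 against FGF4, and -0.39 and -0.24 in LY+FGF4 against LY. The cytosolic median was the lower where FGF4 with heparin was the single difference, and the mitochondrial one in the other comparisons.

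Of 9 genes between mTORC1 and translation, Rps6kb2, an S6 kinase, was the one that passed. It fell by 2.09 in LY+FGF4 against DMSO (SE 0.49, limma adjusted p = 0.00736) and fell by 2.28 in LY+FGF4 against LY (SE 0.45, limma adjusted p = 0.00270). Among 7 other TOP or ribosome-associated genes, Btf3, a subunit of the nascent polypeptide complex, fell by 0.97 in LY+FGF4 against DMSO (SE 0.21, limma adjusted p = 0.00398) and fell by 1.22 against LY (SE 0.19, limma adjusted p = 0.000348). Npm1, a nucleolar assembly factor, fell by 0.49 in FGF4 against DMSO (SE 0.13, limma adjusted p = 0.0447) and fell by 0.53 in LY+FGF4 against LY (SE 0.13, limma adjusted p = 0.0148). Among 7 assembly chaperones, Tsr2, which escorts Rps26, rose by 1.52 in LY+FGF4 against LY (SE 0.36, limma adjusted p = 0.0100). Its mean levels were 119 TPM in LY+FGF4, 119 in FGF4, 42.1 in LY and 104 in DMSO, so LY alone was low. In the same comparison Rps26 fell by 1.40 (SE 0.30, limma adjusted p = 0.00583). Rps26 averaged 286 TPM in LY and 294 in DMSO. In LY+FGF4 against DMSO, where Rps26 also fell, Tsr2 did not pass. A link between the 2 genes was not tested. For these 3 lists too, the shares of all tested genes that passed stand beside the calls. They were 2.44% in FGF4 against DMSO, 9.5% in LY+FGF4 against DMSO and 6.3% in LY+FGF4 against LY. In LY against DMSO 0 genes of any list passed by limma, where 0.374% of all tested genes did.

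**Figure D5:**
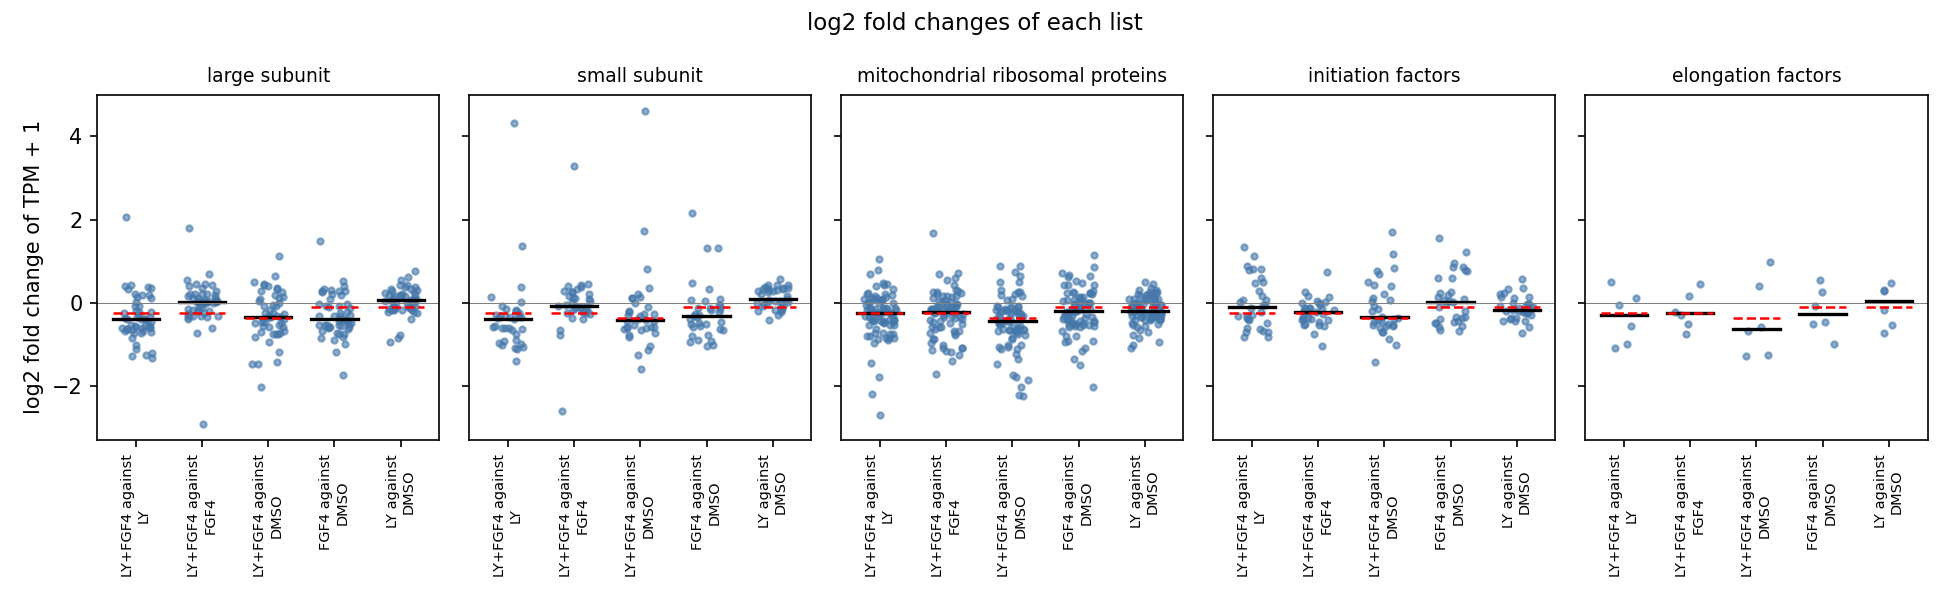
log2 fold change of TPM + 1 of each gene in 5 lists (panels), 1 point per gene, in the 5 pairwise comparisons. Black bars are the medians of the list and red dashed bars the median of all 12034 tested genes. In FGF4 against DMSO the median is -0.38 for the large subunit, -0.30 for the small subunit and -0.10 over all genes.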

How the data were processed

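FLASH-seq, a full-length RNA-seq method, was applied to 26 single ICMs. The authors deposited 1 table of TPM values per gene symbol. Per the submitters' processing notes it was made with STAR, RSEM and the mm10 build, their versions and the annotation being not given in the sources used here. Each library sums to 1000000 TPM, so values are shares without read depth, and precision comes from the replicates alone.

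Groups were taken from the treatment labels, and each library is a separate ICM, so p-values measure the spread between embryos. Genes at 1 TPM or more in at least 5 libraries (12034) were tested together, after adding 1 to TPM and taking log2, by limma (3.58.1, R 4.3.3) with a mean per group over all 26 libraries, trend and robust options and Benjamini-Hochberg adjustment over all tested genes (threshold 0.05). Comparisons were 5 pairs of groups and the interaction. Paralog differences were tested by two-sided exact permutation over libraries. The fit was tested on simulated data. Copies and gene types came from GENCODE M21 and starts of transcription from RefSeq. Replicate numbers repeat between groups, but residuals of same-numbered libraries did not correlate (31 pairs, median r -0.00406, 0 over 0.1), so they were not paired.

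The members and lists were chosen with earlier results of these data known. Members named with values are those past the threshold (up to 8 per comparison by p), the paralog pairs, the 3 highest and lowest levels per subunit, the 3 largest and smallest fold changes, Rpsa, Rplp0, Rplp1, Rplp2 and Rps6, and those at 0 in most libraries. Some genes are not reported here. Others that complete a count of up to 23 members were named after their values were seen. Of the listed genes outside the members, at most 4 per list and comparison are named. Alternatives tried were the pseudocount, the low-value filter, scaling, fit options, weights, a covariate, a replicate block, leaving out libraries and adding copies.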

Additional observations from a re-analysis of the deposited data

Results flagged for a closer look

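In 124 groups of libraries (the 2 subunit sums and the members called (up to 8 per comparison) or paired, each in each condition), 8 values stood apart from their group by Dixon's criterion at 95%, a rate near the 1 in 20 that chance gives. Replicate 7 of LY+FGF4 had the lowest summed TPM of small subunit members, 15301.82, with the next at 17494.02. Replicate 2 of FGF4, which lists fewer than 9000 genes, had the highest Rpsa, 2156.85 TPM with the next at 1136.3, and the highest Rpl3, 2661.45 TPM with the next at 1749.25. Replicate 7 of LY had the highest Rpl10l, 17.02 TPM with the next at 5.87, and the lowest Rps10, 223.62 TPM with the next at 289.24. Replicate 3 of LY had the highest Rpl36a, 735.31 TPM with the next at 376.69, and the highest Rps27l, 683.09 TPM with the next at 493.37. Replicate 6 of LY+FGF4 had the highest Rpl22l1, 70.08 TPM with the next at 17.48.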

How the results depend on the processing

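Of 54 member calls over the comparisons, 0 changed sign under any alternative. Calls of the listed genes outside the members were not followed under these alternatives. The number of listed genes as a covariate ended 48 of them, leaving out the libraries under 9000 genes 32, a fit without trend and robust options 26, the replicate block 19 and adding copies 11, while the median-ratio scaling ended 1 and a total without ribosomal rows 0. Member counts are given for FGF4 against DMSO (8 as reported), LY+FGF4 against DMSO (20), LY+FGF4 against FGF4 (3) and LY+FGF4 against LY (23). Without trend and robust options they were 1, 12, 1 and 14. With the covariate they were 2, 1, 0 and 4. Without the libraries under 9000 genes the counts of the last 3 were 7, 0 and 9. Library weights gave 26 in FGF4 against DMSO, 0 in LY+FGF4 against FGF4 and 3 in LY against DMSO (0 as reported). Only the compared groups gave 0 in LY+FGF4 against FGF4. Why these counts moved was not tested. Counts of all tested genes under the same settings are not set beside them, so whether members moved apart from other genes is not shown. With the replicate block the counts were 0 in FGF4 against DMSO, 13 in LY+FGF4 against DMSO, 1 in LY+FGF4 against FGF4 and 24 in LY+FGF4 against LY, although 2 of 24 libraries correlated best with their own number. Leaving out 1 library gave 2 to 12, 13 to 23, 0 to 4 and 20 to 27 calls. Paralog tests past the threshold were 0 as reported and 0 to 1 without 1 library (1 without replicate 7 of LY+FGF4, replicate 2 of FGF4 or replicate 6 of DMSO), with differences of 0.64 to 0.85 (Rps27l, LY+FGF4 against LY), 0.67 to 0.97 (Rps27l, FGF4 against DMSO) and -4.18 to -3.18 (Rpl10l, LY+FGF4 against FGF4). Among the values named by rule, signs turned for 5, all uncalled, and copies turned others as given above. With the covariate Rpl22l1 was 0.17 and Rplp2 0.37 in LY+FGF4 against DMSO, and they were 0.22 and 0.0877 against LY. Rps6 was 0.0117 in LY+FGF4 against FGF4 without the libraries under 9000 genes. TPM holds no read number, so values of a few TPM, as for Rpl6l and Rpl10l, cannot be given a counting error.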
